A study of Homo sapiens with 6 samples.

Results

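Genes that carry newly made proteins into the endoplasmic reticulum (ER), attach N-linked glycans to them there and move them to the Golgi were followed in 6 RNA libraries of thymidylate synthase (TS) immunoprecipitation. Members were chosen by gene name from a list of 42. Of these, 40 had an entry of their own among the 42822 entries of the table: 10 subunits of the oligosaccharyltransferase, 10 translocon genes, 5 signal peptidase subunits and 15 genes of ER-Golgi cargo transport. The other 2, TMEM258 and TMED7, lay within entries that merged them with a neighbour (MIR611 and TMED7-TICAM2). They were kept out of all counts except those of promoters.

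All libraries came from HCT116-UGI, a human colon adenocarcinoma line that lacks mismatch repair (MMR deficient) and expresses UGI, a protein that inhibits the uracil-DNA glycosylase UNG, so both repair defects were shared by every group. Cells were treated for 48 h with 20 µM 5-fluoro-2'-deoxyuridine (5FdUR), a nucleoside analogue that inhibits TS, or with 100 nM raltitrexed (RTX), an antifolate inhibitor of the same enzyme, or were left non-treated (NT). From each lysate, a mixture of cytoplasmic and nuclear extract, RNA was eluted from beads carrying an anti-TS antibody (TS-RIP) and from the antibody-free beads of the preceding pre-clearing step (RIPctr). There was 1 library per treatment and fraction, both fractions of a treatment came from 1 lysate, and they are not replicates of that treatment. In such bulk extracts a change in the number of cells that express a gene and a change in RNA per cell cannot be told apart.

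A protein that is to be secreted or inserted into a membrane is guided to the SEC61 channel of the ER while it is being made. Signal peptidase cuts off its targeting sequence, the oligosaccharyltransferase transfers a preassembled glycan to asparagines, and cargo receptors gather the finished protein for transport to the Golgi, from which escaped ER residents are brought back. Much of this machinery is known to be induced together when unfolded proteins accumulate in the ER, through the transcription factors ATF6 and XBP1.

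Values are given in deposited units, which are fragment counts scaled between libraries without division by gene length. A single fragment was worth between 85.0 and 136 units, and the libraries held between 7051104 and 11657293 fragments. The fewest fragments behind any member value were 38 (SSR4 in NT RIPctr). Per kb of transcript, the mean level over the 6 libraries was highest for RPN1 (162053 units per kb) and lowest for SPCS2 (5773), with a median of 29096 over the 40 members. Of 8 epithelial markers, 6 had a mean above 500 units, with EPCAM and the keratins KRT8, KRT18 and KRT19 among them. The intestinal genes VIL1 and CDH17 had at most 5 fragments in any library. Markers of blood, endothelium and liver summed to at most 3570.1 units per list in any library. The 4 fibroblast markers, of which only COL1A1 had a mean above 500 units, summed to 9169 units in TS-RIP and 18533 in RIPctr with 5FdUR, 11756 and 18791 with RTX, and 21336 and 24734 in NT. The summed nuclear-retained RNAs MALAT1, NEAT1 and KCNQ1OT1 stood at 156570, 157360 and 308219 units in TS-RIP of 5FdUR, RTX and NT, against 7680321, 11924774 and 6156882 in RIPctr.

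The first question was how the levels of these mRNAs compared between drug-treated and NT cells. Nearly all were more abundant after either drug, in both fractions. With 5FdUR, 34 of 40 members were higher than in NT past 1.5-fold in both TS-RIP and RIPctr (85%), against 20.3% of all 12502 genes measured. With RTX, 34 of 40 were higher by the same rule, against 14.2% of all genes. None was lower with either drug, where 18.3% of all genes were lower with 5FdUR and 13.7% with RTX. These are counts by size with no test, as each treatment was 1 lysate.

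The median member was 2.60-fold higher with 5FdUR in TS-RIP and 2.53-fold higher in RIPctr (log2 1.38 and 1.34), where the median over all genes was 0.02 in each fraction. With RTX the member medians were 2.36-fold and 2.26-fold (log2 1.24 and 1.17), and those over all genes were -0.01 in each. At 2-fold in both fractions, 26 members were higher with 5FdUR (10% of all genes) and 23 with RTX (5.33% of all genes). The lowest of the 4 drug libraries lay above the higher NT library for 39 of 40 members, the exception being TMED3, against 29.9% of all genes, and the reverse held for 0 members, against 29.3% of all genes. Counting intervals (exact Clopper-Pearson, 95%, for counting error only) lay above 0 in both fractions for 40 members with 5FdUR and 39 with RTX. The share of all genes with such intervals was not computed.

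**Figure D1:**
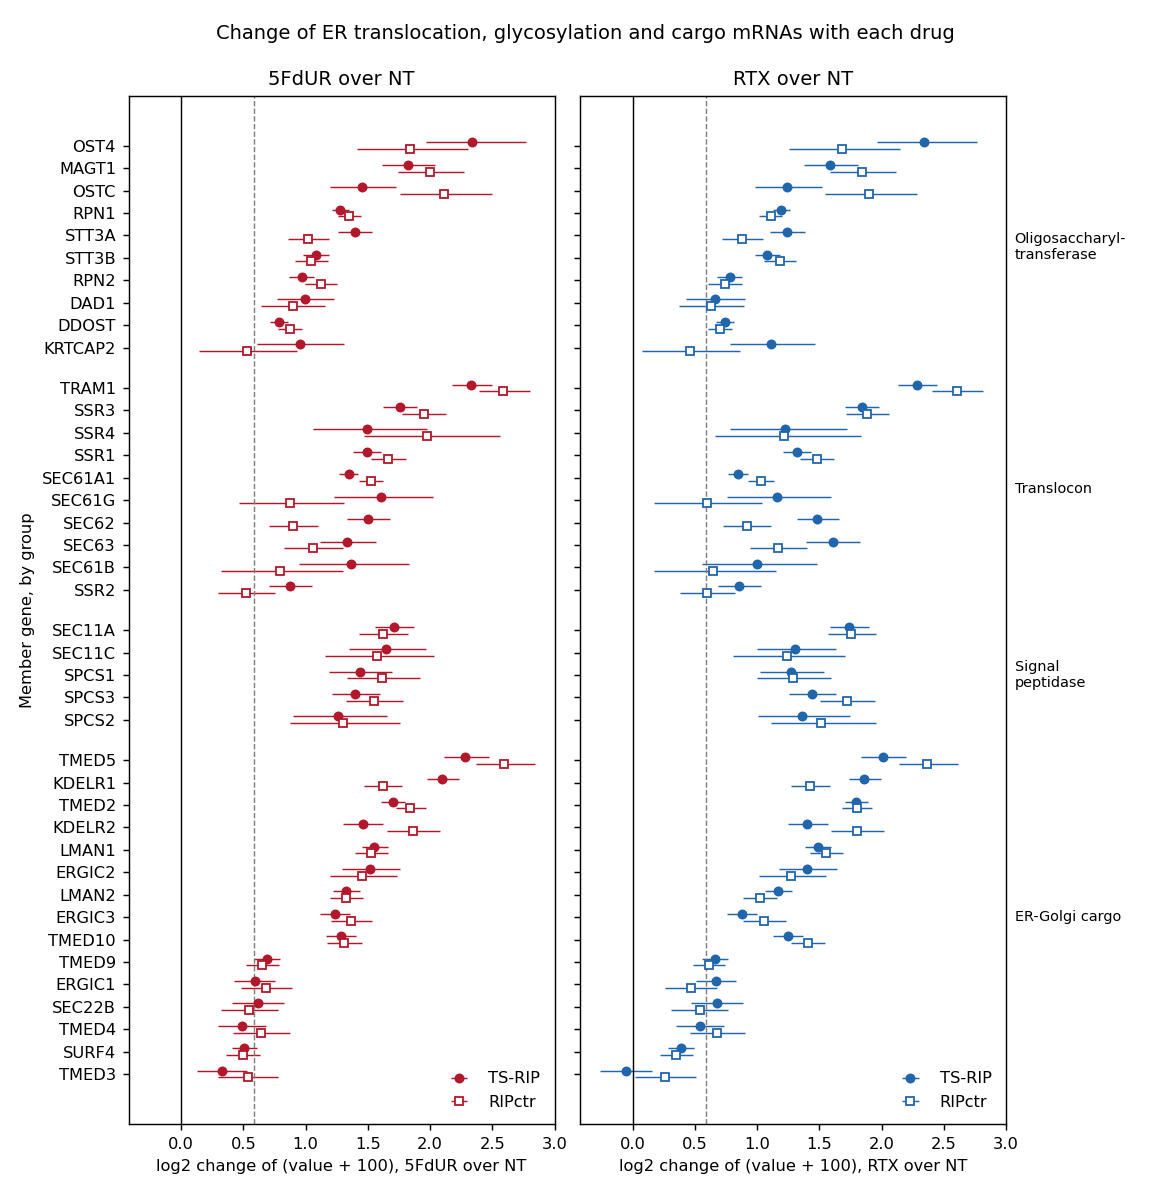
Log2 change of each of the 40 member genes with 5FdUR over NT (left panel) and with RTX over NT (right panel). Filled circles are TS-RIP, open squares RIPctr, bars are exact 95% counting intervals, and the dashed line marks 1.5-fold. Of the members, 34 pass that line in both fractions with each drug, and TMED3 and SURF4 lie lowest in the cargo group by the mean of both fractions, with each drug.

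As a share of all fragments, the 40 members together made up 0.539% of TS-RIP and 0.495% of RIPctr with 5FdUR, 0.478% and 0.440% with RTX, and 0.228% and 0.181% in NT. The 4 drug libraries were thus all above both NT libraries. The nuclear-retained RNAs did not move with the members in this way: their sum was higher with the drugs than in NT in RIPctr and lower in TS-RIP. The 8 epithelial markers summed to 10220940 units in TS-RIP and 8759175 in RIPctr with 5FdUR, 9248406 and 6973582 with RTX, and 6414017 and 6735681 in NT. Their sum, most of which was KRT8, KRT18 and KRT19, was higher in each drug library than in either NT library. So were EPCAM, with 340748 units in TS-RIP and 278673 in RIPctr with 5FdUR, 317997 and 268928 with RTX, and 114243 and 109991 in NT, and CDH1, with 139728 and 121826, 91448 and 94454.5, and 49981 and 48214. KRT18 and KRT19 overlapped with NT in RIPctr with RTX. CDX2 was lower, with 12956 units in TS-RIP and 10629 in RIPctr with 5FdUR, 14069 and 14062 with RTX, and 24056 and 16983 in NT. The part of these markers in the result was not tested.

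**Figure D2:**
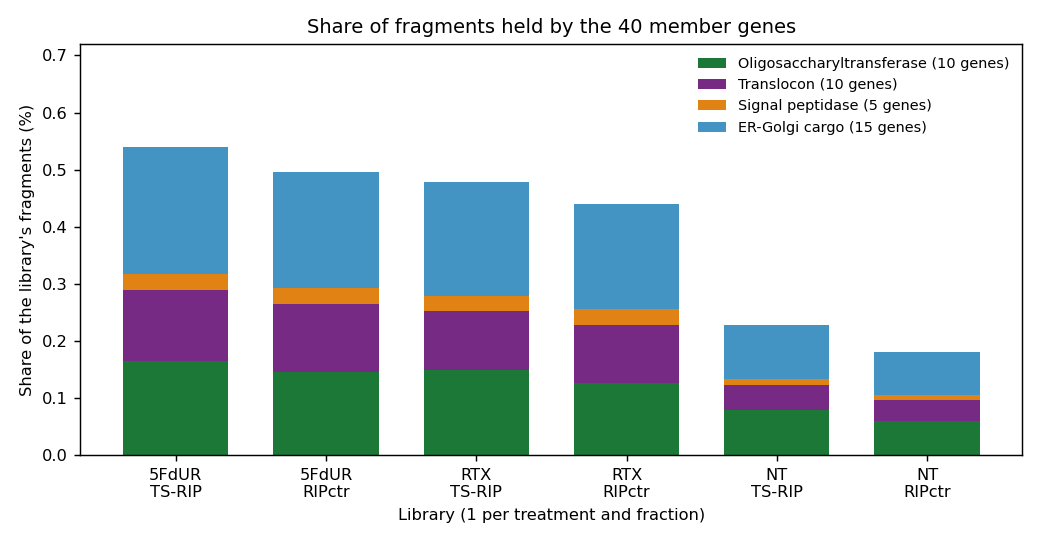
Share of each library's fragments (percent, stacked bars) held by the 4 groups of member genes in the 6 libraries. The 4 drug libraries reach between 0.440% and 0.539%, and the NT libraries 0.228% and 0.181%.

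The oligosaccharyltransferase exists in 2 forms, built on the catalytic subunits STT3A, which works at the translocon, and STT3B, which can act after translocation. In this group 9 of 10 members passed 1.5-fold with 5FdUR and 9 of 10 with RTX, and the median changes over both fractions were 1.13 and 1.10 on the log2 scale. STT3A stood at 139229 units in TS-RIP and 111742 in RIPctr with 5FdUR, 125175 and 101299 with RTX, and 52956 and 55053 in NT. STT3B stood at 211385 units in TS-RIP and 173063 in RIPctr with 5FdUR, 211612 and 190900 with RTX, and 99878 and 84004 in NT. Both catalytic subunits were higher in every drug library than in either NT library, by 2.63-fold in TS-RIP and 2.03-fold in RIPctr with 5FdUR, and 2.36-fold and 1.84-fold with RTX for STT3A, and by 2.12-fold in TS-RIP and 2.06-fold in RIPctr with 5FdUR, and 2.12-fold and 2.27-fold with RTX for STT3B.

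The large subunits RPN1, RPN2 and DDOST are shared by both forms. RPN1 (ribophorin I), the highest per kb, measured 533197 units in TS-RIP and 431704 in RIPctr with 5FdUR, 502049 and 364751 with RTX, and 219816 and 169261 in NT. RPN2 (ribophorin II) measured 217963 units in TS-RIP and 184646 in RIPctr with 5FdUR, 190991 and 142117 with RTX, and 111353 and 84916 in NT. DDOST, which encodes the OST48 subunit and whose entry also held transcripts of PINK1-AS, measured 384699 units in TS-RIP and 305109 in RIPctr with 5FdUR, 373694 and 271168 with RTX, and 223386 and 166867 in NT. For all of these the drug libraries did not overlap with NT, and the difference was 2.42-fold in TS-RIP and 2.55-fold in RIPctr with 5FdUR, and 2.28-fold and 2.15-fold with RTX for RPN1. DDOST was the nearest to NT of the called subunits in TS-RIP with 5FdUR, with 1.72-fold in TS-RIP and 1.83-fold in RIPctr with 5FdUR, and 1.67-fold and 1.62-fold with RTX.

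The small subunits differed among themselves. OST4, a very short membrane subunit, measured 28304 units in TS-RIP and 23847 in RIPctr with 5FdUR, 28331 and 21405 with RTX, and 5525 and 6611 in NT. Over both fractions it stood furthest above NT in the complex, by 5.05-fold in TS-RIP and 3.57-fold in RIPctr with 5FdUR, and 5.05-fold and 3.20-fold with RTX, on 58 fragments in NT RIPctr. DAD1, a subunit named for its protection against cell death, measured 42955 units in TS-RIP and 44015 in RIPctr with 5FdUR, 34112 and 36587 with RTX, and 21506 and 23594 in NT, and was higher by 1.99-fold in TS-RIP and 1.86-fold in RIPctr with 5FdUR, and 1.58-fold and 1.55-fold with RTX. KRTCAP2, a subunit of the STT3A form, had an entry that also held MUC1 transcripts and measured 18338 units in TS-RIP and 16352 in RIPctr with 5FdUR, 20525 and 15556 with RTX, and 9435 and 11284 in NT. It passed 1.5-fold in TS-RIP with both drugs but not in RIPctr, where it was 1.45-fold higher with 5FdUR and 1.38-fold higher with RTX.

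Of the other partners that belong to 1 form of the enzyme, OSTC and MAGT1 were called. OSTC, which joins STT3A to the translocon, measured 39666 units in TS-RIP and 39655 in RIPctr with 5FdUR, 34305 and 34223 with RTX, and 14450 and 9118 in NT. MAGT1, the oxidoreductase subunit of the STT3B form, measured 72654 units in TS-RIP and 71814 in RIPctr with 5FdUR, 61672 and 64463 with RTX, and 20486 and 17895 in NT. OSTC was higher by 2.73-fold in TS-RIP and 4.31-fold in RIPctr with 5FdUR, and 2.36-fold and 3.72-fold with RTX, and MAGT1 by 3.53-fold in TS-RIP and 4.0-fold in RIPctr with 5FdUR, and 3.0-fold and 3.59-fold with RTX, with no overlap between drug and NT libraries. The merged entry that holds TMEM258, a further subunit, measured 11063 units in TS-RIP and 10629 in RIPctr with 5FdUR, 11274 and 10702 with RTX, and 2805 and 3761 in NT. Its drug values were likewise all above those of NT, but the share of TMEM258 transcripts in that entry is not known.

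Among the translocon genes, 9 of 10 passed 1.5-fold with 5FdUR and 10 of 10 with RTX, with median changes of 1.34 and 1.21. The channel itself consists of SEC61A1, the pore, and the small subunits SEC61B and SEC61G. SEC61A1 measured 428750 units in TS-RIP and 381829 in RIPctr with 5FdUR, 302675 and 270795 with RTX, and 168645 and 132673 in NT. SEC61B measured 14152 units in TS-RIP and 12128 in RIPctr with 5FdUR, 10985 and 10951 with RTX, and 5440 and 6953 in NT. SEC61G measured 19335 units in TS-RIP and 16625 in RIPctr with 5FdUR, 14165 and 13689 with RTX, and 6290 and 9004 in NT. All 3 were higher in every drug library than in NT. The pore subunit was higher by 2.54-fold in TS-RIP and 2.88-fold in RIPctr with 5FdUR, and 1.79-fold and 2.04-fold with RTX, and SEC61G in RIPctr with RTX was just past the threshold at 1.51-fold.

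TRAM1, a membrane protein that contacts nascent chains as they enter the channel, had the largest difference from NT of all 40 members over both fractions. It measured 174410 units in TS-RIP and 162298 in RIPctr with 5FdUR, 168635 and 164020 with RTX, and 34596 and 26899 in NT. The 4 drug libraries lay within a narrow band, far above the NT pair, and the difference was 5.03-fold in TS-RIP and 6.01-fold in RIPctr with 5FdUR, and 4.86-fold and 6.08-fold with RTX. Its paralog TRAM2, which is no member, measured 45347 units in TS-RIP and 51646 in RIPctr with 5FdUR, 40569 and 40445 with RTX, and 60012 and 49012 in NT, with no such increase.

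SEC62 and SEC63 help proteins that enter the ER after their synthesis. SEC62 measured 94481 units in TS-RIP and 76720 in RIPctr with 5FdUR, 93375 and 77530 with RTX, and 33321 and 41033 in NT. SEC63 measured 52423 units in TS-RIP and 56416 in RIPctr with 5FdUR, 63310 and 60730 with RTX, and 20741 and 27013 in NT. Both were higher with the drugs in both fractions, SEC62 by 2.83-fold in TS-RIP and 1.87-fold in RIPctr with 5FdUR, and 2.80-fold and 1.89-fold with RTX, and SEC63 by 2.52-fold in TS-RIP and 2.08-fold in RIPctr with 5FdUR, and 3.04-fold and 2.24-fold with RTX.

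The translocon-associated protein (TRAP) complex, which assists the entry of certain chains, is encoded by SSR1 to SSR4. SSR1 measured 212282 units in TS-RIP and 217896 in RIPctr with 5FdUR, 188485 and 191771 with RTX, and 75567 and 68730 in NT. SSR2 measured 72156 units in TS-RIP and 47422 in RIPctr with 5FdUR, 71212 and 50152 with RTX, and 39271 and 33054 in NT. SSR2 was the only translocon gene not called with 5FdUR, at 1.84-fold in TS-RIP and 1.43-fold in RIPctr. SSR3 measured 168331 units in TS-RIP and 154258 in RIPctr with 5FdUR, 178464 and 147220 with RTX, and 49811 and 39893 in NT. SSR4 measured 14052 units in TS-RIP and 17306 in RIPctr with 5FdUR, 11660 and 10205 with RTX, and 4930 and 4331 in NT. In each of the 4 genes the drug libraries lay above NT, with SSR3 higher by 3.37-fold in TS-RIP and 3.86-fold in RIPctr with 5FdUR, and 3.58-fold and 3.68-fold with RTX.

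Since so many members were higher together, their promoters (300 bases, with 250 before and 50 after the start, RefSeq on GRCh38.p14) were searched on both strands for elements named for the unfolded protein response. A promoter was given for 34 of the 42 listed genes. None was given for RPN1, STT3B, TRAM1, SPCS1, TMED4, TMED9, ERGIC1 and KDELR2. The ER stress element, a CCAAT box and a CCACG box set apart, was found in 0 of 34, against 0.0769% of 35116 promoters of the same length, and its second form in 0 of 34, against 0.0541%. The core TGACGTGG, whose reverse complement CCACGTCA shares the letters CCACG with both other elements, was found in 3 of 34 (8.82%), against 0.729% of all promoters. These 3 were SSR3, SEC62 and SSR4, all translocon genes, at chr3:156554129-156554196 on the minus strand, chr3:169966760-169966827 on the plus strand and chrX:153794509-153794576 on the plus strand. Members were counted by gene, with a match in any promoter of the gene, and the background by single promoter. The shares are therefore not like for like, and the difference between them was not tested. A match is a description of letters in the window and says nothing of binding. The windows around the match are printed 5′ to 3′ on the strand of the gene, with the match, here always the reverse complement, in capitals.
SSR3: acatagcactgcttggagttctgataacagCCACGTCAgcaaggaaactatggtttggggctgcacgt
SEC62: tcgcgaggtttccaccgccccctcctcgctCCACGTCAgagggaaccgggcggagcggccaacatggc
SSR4: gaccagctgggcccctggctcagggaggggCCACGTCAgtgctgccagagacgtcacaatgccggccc

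Of the 3 genes, SSR3 and SEC62 have their changes given above, and SSR4 was higher by 2.81-fold in TS-RIP and 3.93-fold in RIPctr with 5FdUR, and 2.34-fold and 2.33-fold with RTX.

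All 5 signal peptidase genes passed 2-fold in both fractions with each drug. By the mean of both fractions they had the highest group medians, 1.52 with 5FdUR and 1.44 with RTX. In TS-RIP with 5FdUR the translocon median was higher, 1.49 against 1.43 for the signal peptidase. The catalytic subunits are SEC11A and SEC11C, which are alternatives to each other. SEC11A measured 123483 units in TS-RIP and 102475 in RIPctr with 5FdUR, 126042 and 112748 with RTX, and 37656 and 33282 in NT. SEC11C measured 32889 units in TS-RIP and 21531 in RIPctr with 5FdUR, 25922 and 17049 with RTX, and 10455 and 7181 in NT. Both were well separated from NT, with changes of 3.27-fold in TS-RIP and 3.07-fold in RIPctr with 5FdUR, and 3.34-fold and 3.38-fold with RTX for SEC11A, and 3.13-fold in TS-RIP and 2.97-fold in RIPctr with 5FdUR, and 2.47-fold and 2.36-fold with RTX for SEC11C.

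The other subunits hold and shape the enzyme. SPCS1 measured 43553 units in TS-RIP and 47286 in RIPctr with 5FdUR, 38930 and 37707 with RTX, and 16065 and 15387 in NT. SPCS2 measured 18238 units in TS-RIP and 18669 in RIPctr with 5FdUR, 19562 and 21654 with RTX, and 7565 and 7523 in NT. SPCS3, which is required for activity, measured 73452 units in TS-RIP and 76448 in RIPctr with 5FdUR, 75548 and 86241 with RTX, and 27796 and 26102 in NT. Their changes ranged between 2.39-fold and 3.30-fold over both drugs and fractions, and no drug library overlapped with NT.

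The cargo group was the most mixed. Of its 15 genes 11 passed 1.5-fold with 5FdUR and 10 with RTX, and the medians were 1.30 and 1.10. The TMED genes encode p24 proteins, which select cargo for vesicles between ER and Golgi and form complexes with each other. TMED2 measured 342642 units in TS-RIP and 309878 in RIPctr with 5FdUR, 365793 and 301284 with RTX, and 105233 and 86397 in NT. TMED10, a partner of TMED2, measured 171719 units in TS-RIP and 174426 in RIPctr with 5FdUR, 167382 and 186296 with RTX, and 70552 and 70212 in NT. TMED5 measured 130658 units in TS-RIP and 121144 in RIPctr with 5FdUR, 108119 and 103290 with RTX, and 26776 and 19947 in NT. TMED5 was next to TRAM1 in size, with 4.87-fold in TS-RIP and 6.05-fold in RIPctr with 5FdUR, and 4.03-fold and 5.16-fold with RTX, while TMED10 was higher by 2.43-fold in TS-RIP and 2.48-fold in RIPctr with 5FdUR, and 2.37-fold and 2.65-fold with RTX.

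Other p24 genes stood nearer to NT. TMED9 measured 184177 units in TS-RIP and 145128 in RIPctr with 5FdUR, 180295 and 141122 with RTX, and 114073 and 92324 in NT, just past the threshold in both fractions with both drugs. TMED4 measured 48137 units in TS-RIP and 50011 in RIPctr with 5FdUR, 49916 and 51272 with RTX, and 34341 and 32028 in NT, and passed 1.5-fold in RIPctr only. TMED3 measured 43254 units in TS-RIP and 44015 in RIPctr with 5FdUR, 33149 and 36338 with RTX, and 34426 and 30319 in NT. It was the only member whose drug and NT libraries overlapped, as its RTX TS-RIP value lay below that of NT TS-RIP (0.96-fold). The merged entry of TMED7 measured 63386 units in TS-RIP and 87758 in RIPctr with 5FdUR, 85377 and 111006 with RTX, and 62222 and 55964 in NT, which cannot be assigned to TMED7 alone.

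The sorting lectins bind glycans on cargo. LMAN1 (ERGIC-53) measured 259024 units in TS-RIP and 219668 in RIPctr with 5FdUR, 247941 and 223878 with RTX, and 88232 and 76139 in NT. LMAN2 (VIP36) measured 227232 units in TS-RIP and 192822 in RIPctr with 5FdUR, 203807 and 156429 with RTX, and 90612 and 76823 in NT. Both were called with each drug, LMAN1 by 2.93-fold in TS-RIP and 2.88-fold in RIPctr with 5FdUR, and 2.81-fold and 2.94-fold with RTX. MCFD2, the soluble partner of LMAN1 in the export of clotting factors and no member, measured 155275 units in TS-RIP and 143220 in RIPctr with 5FdUR, 128741 and 112748 with RTX, and 132434 and 114322 in NT, below 1.5-fold with either drug.

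ERGIC2 and ERGIC3 form a receptor that cycles between the compartments, with ERGIC1 as a related protein. ERGIC3 measured 177301 units in TS-RIP and 126731 in RIPctr with 5FdUR, 138184 and 102295 with RTX, and 75312 and 49126 in NT. ERGIC2 measured 53519 units in TS-RIP and 52055 in RIPctr with 5FdUR, 49241 and 45921 with RTX, and 18616 and 18921 in NT. ERGIC1 measured 69864 units in TS-RIP and 62957 in RIPctr with 5FdUR, 73910 and 54134 with RTX, and 46411 and 39209 in NT. ERGIC3 and ERGIC2 were called with both drugs. ERGIC1 was at the threshold with 5FdUR (1.504-fold in TS-RIP and 1.60-fold in RIPctr) and reached only 1.38-fold in RIPctr with RTX.

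KDEL receptors return escaped ER proteins. KDELR1 measured 230222 units in TS-RIP and 165705 in RIPctr with 5FdUR, 195423 and 144731 with RTX, and 53722 and 53913 in NT. KDELR2, whose entry also held DAGLB transcripts, measured 105842 units in TS-RIP and 101658 in RIPctr with 5FdUR, 101663 and 97441 with RTX, and 38421 and 27925 in NT. Both were called, KDELR1 with the larger difference in TS-RIP (4.28-fold in TS-RIP and 3.07-fold in RIPctr with 5FdUR, and 3.63-fold and 2.68-fold with RTX) and KDELR2 more in RIPctr (2.75-fold in TS-RIP and 3.63-fold in RIPctr with 5FdUR, and 2.64-fold and 3.48-fold with RTX). The remaining members passed the threshold in at most 1 fraction. SEC22B, a vesicle SNARE, measured 43054 units in TS-RIP and 47013 in RIPctr with 5FdUR, 44809 and 46667 with RTX, and 28051 and 32142 in NT. SURF4, a receptor for soluble cargo, measured 168829 units in TS-RIP and 136134 in RIPctr with 5FdUR, 155337 and 123202 with RTX, and 118663 and 96542 in NT, at most 1.42-fold above NT.

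Threshold cases were few on both sides. With 5FdUR the called members nearest the line were ERGIC1 and TMED9, and those just outside were SEC22B, TMED4, KRTCAP2 and SSR2, each of which passed in 1 fraction. With RTX the nearest called were SEC61G, SSR2 and TMED9, and KRTCAP2, TMED4, ERGIC1 and SEC22B passed in 1 fraction. In total 33 members passed with both drugs.

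The second question was whether the drugs differed. No member passed 1.5-fold in both fractions between 5FdUR and RTX, in either direction, where 4.13% of all 12487 genes were higher with 5FdUR and 2.74% lower. The median member was 0.12 higher on the log2 scale with 5FdUR than with RTX, where the median over all genes was 0.00. For 11 members both counting intervals lay above 0 and for 0 members below. These intervals cover counting error only, and the share of all genes that meet this was not computed. Among the 11, SEC61A1 differed most, by 1.42-fold in TS-RIP and 1.41-fold in RIPctr. SSR4 was 1.69-fold higher with 5FdUR than with RTX in RIPctr but 1.20-fold in TS-RIP, on 127 and 82 fragments in the 2 RIPctr libraries. Beside SEC61A1 the 11 were RPN1, RPN2, DAD1, SSR1, TMED3, TMED5, ERGIC3, LMAN2, SURF4 and KDELR1. On the other side, SEC63 was lowest with 5FdUR relative to RTX by the mean of both fractions, at 0.828-fold in TS-RIP and 0.929-fold in RIPctr, while in RIPctr alone SPCS2 was lower, at 0.863-fold. With 1 lysate per drug, a difference between drugs and one between dishes cannot be told apart.

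Other genes of the pathway were taken from lists outside the members, of which 94 of 104 were measured above the limits. With 5FdUR 31 were higher and 2 lower past 1.5-fold in both fractions, and with RTX 27 were higher and 1 lower. The ER membrane complex (EMC) and the multipass translocon, which insert membrane proteins, had 12 of 15 higher with 5FdUR and 11 of 15 with RTX, with medians of 1.08 and 0.93. MMGT1 and TMCO1 stood highest above NT there, as MMGT1 measured 44549 units in TS-RIP and 41290 in RIPctr with 5FdUR, 42207 and 41440 with RTX, and 8160 and 7751 in NT, and TMCO1 121290 units in TS-RIP and 113649 in RIPctr with 5FdUR, 96941 and 98561 with RTX, and 23546 and 21542 in NT. In contrast, the coats of the transport vesicles were near or below the share over all genes in these counts. COPII had 3 of 15 higher with each drug, and COPI 1 of 10 with 5FdUR and 0 of 10 with RTX. The coat medians were nevertheless above those over all genes, which were 0.01 with 5FdUR and -0.02 with RTX. They were 0.23 with each drug for COPII, and 0.48 with 5FdUR and 0.52 with RTX for COPI. Synthesis of the lipid-linked glycan donor had 4 of 19 higher with 5FdUR and 5 of 19 with RTX. Of the paralogs outside the members, 2 of 9 were higher with 5FdUR and 1 of 9 with RTX. In the remaining lists the counts were 2 of 6 with each drug for glycan trimming, 4 of 13 with 5FdUR and 3 of 13 with RTX for Golgi SNAREs and fusion factors, and 2 of 6 and 1 of 6 for the GET pathway of tail-anchored proteins. SRPRA, a subunit of the receptor for the signal recognition particle, was higher with both.

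**Figure D3:**
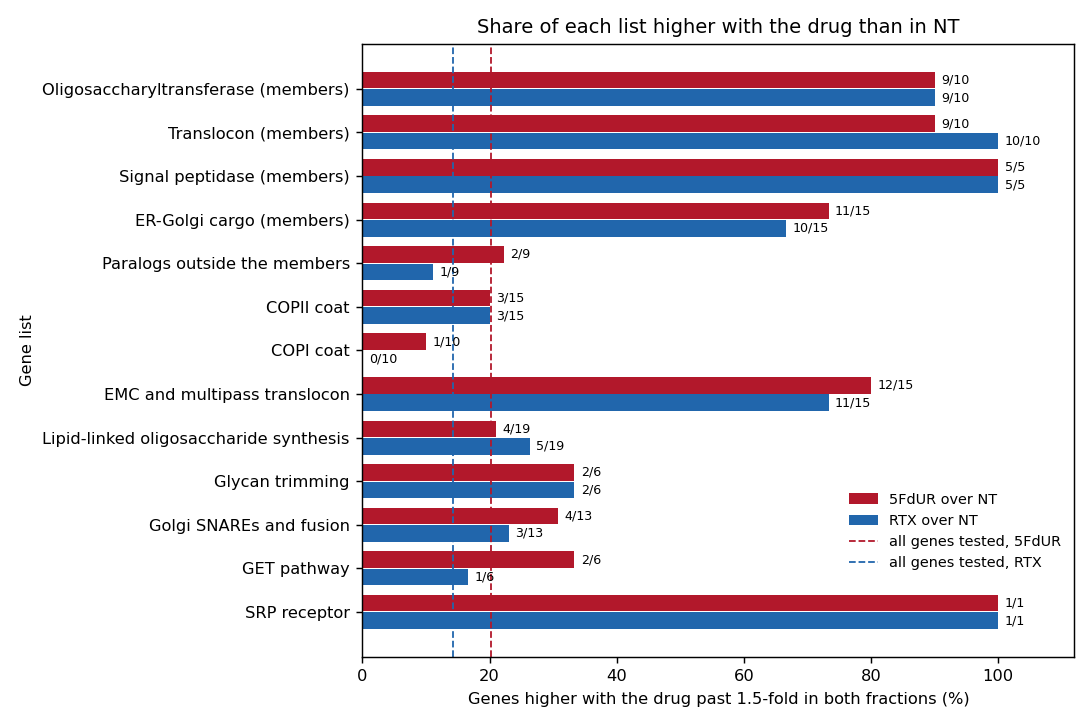
Share of genes in each list that were higher with 5FdUR (red) or RTX (blue) than in NT past 1.5-fold in both fractions, with the count at each bar. Dashed lines give the share over all genes, 20.3% and 14.2%. The 4 member groups and the EMC list lie far to the right of these lines, and the COPI and COPII coats close to them or to their left.

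The third question was whether these mRNAs were enriched with TS. In limma over the 3 treatments, 6 of 40 members rose in TS-RIP relative to RIPctr and 0 fell, against 2.33% of all 13479 genes that rose and 6.17% that fell. These were SEC11C, ERGIC3, SSR2, DDOST, RPN1 and RPN2, in each of which TS-RIP was higher in 3 of 3 treatments. All increases were modest, below 1.5-fold on average. The median member ratio was 0.19 on the log2 scale, against -0.01 over all genes and 0.01 over protein-coding genes. By group the medians were 0.20 for the oligosaccharyltransferase, 0.06 for the translocon, 0.00 for the signal peptidase and 0.20 for the cargo genes.

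SEC11C (chr18:59139866-59158832, plus strand, 6 exons and 791 nt in the canonical transcript) had the highest ratio, 0.58 ± 0.14 on the log2 scale (moderated SE, n = 3 pairs, limma adjusted p = 0.017), with 0.61 in 5FdUR, 0.60 in RTX and 0.54 in NT. ERGIC3 (chr20:35542038-35557634, plus strand, 13 exons and 1302 nt in the canonical transcript) had 0.51 ± 0.10 on the log2 scale (moderated SE, n = 3 pairs, limma adjusted p = 0.0079), with 0.48 in 5FdUR, 0.43 in RTX and 0.62 in NT. SSR2 (chr1:156009048-156020951, minus strand, 6 exons and 1108 nt in the canonical transcript) had 0.45 ± 0.11 on the log2 scale (moderated SE, n = 3 pairs, limma adjusted p = 0.025), with 0.60 in 5FdUR, 0.50 in RTX and 0.25 in NT. Thus TS-RIP exceeded RIPctr in all pairs of these genes, least for SSR2 in NT. Their values in each library are given above.

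The 3 large oligosaccharyltransferase subunits followed. DDOST (chr1:20651767-20661544, minus strand, 11 exons and 1941 nt in the canonical transcript) had 0.41 ± 0.11 on the log2 scale (moderated SE, n = 3 pairs, limma adjusted p = 0.032), with 0.33 in 5FdUR, 0.46 in RTX and 0.42 in NT. RPN1 (chr3:128619969-128681075, minus strand, 10 exons and 2284 nt in the canonical transcript) had 0.38 ± 0.11 on the log2 scale (moderated SE, n = 3 pairs, limma adjusted p = 0.047), with 0.30 in 5FdUR, 0.46 in RTX and 0.38 in NT. RPN2 (chr20:37178410-37241619, plus strand, 17 exons and 2227 nt in the canonical transcript) had 0.35 ± 0.10 on the log2 scale (moderated SE, n = 3 pairs, limma adjusted p = 0.048), with 0.24 in 5FdUR, 0.43 in RTX and 0.39 in NT. Coordinates are those of GENCODE 44 on GRCh38.

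Just outside the threshold were TMED9, at 0.33 ± 0.10 on the log2 scale (moderated SE, n = 3 pairs, limma adjusted p = 0.054), and SURF4, at 0.31 ± 0.10 on the log2 scale (moderated SE, n = 3 pairs, limma adjusted p = 0.067). Lowest in their groups were DAD1 with -0.04 in 5FdUR, -0.10 in RTX and -0.13 in NT, SEC63 with -0.11 in 5FdUR, 0.06 in RTX and -0.38 in NT, SPCS2 with -0.03 in 5FdUR, -0.15 in RTX and 0.01 in NT and SEC22B with -0.13 in 5FdUR, -0.06 in RTX and -0.20 in NT. DAD1 and SEC22B were below 0 in each treatment, and none of the 4 passed the test. STT3A and STT3B, with mean ratios of 0.19 and 0.23, did not pass either (limma adjusted p = 0.306 and 0.177).

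The calls rested on few pairs. Without the NT pair 19 members rose, where 13.7% of all genes did. Without the 5FdUR pair 1 rose (ERGIC3), against 0.618% of all genes. Without the RTX pair 0 rose (4 at an unadjusted p under 0.05), against 0.0370% of all genes. With libraries scaled to the same total only ERGIC3 rose, against 0.496% of all genes. All 6 called members were among the 20 with the shortest transcripts (425 to 2546 nt, median ratio 0.23), while the 20 longest (2691 to 9661 nt) had a median of 0.13. Over 8946 protein-coding genes with a mean above 10000 units, the ratio correlated with log2 transcript length at r = -0.39 (across genes, which are not independent), and over the 40 members at r = -0.15. The part of length in these ratios was not tested. The nuclear-retained RNAs were far lower in TS-RIP than in RIPctr in each treatment, and their part in the ratios was not tested either.

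**Figure D4:**
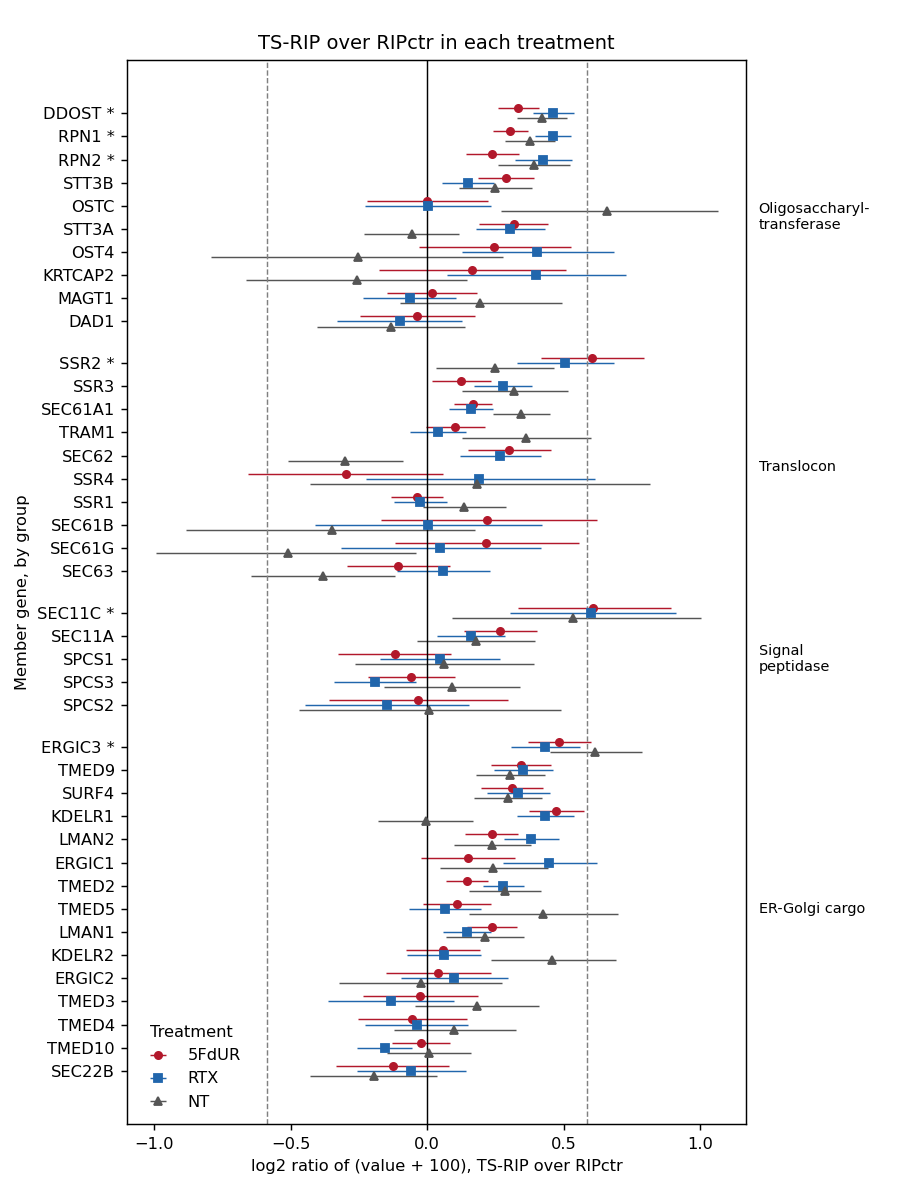
Log2 ratio of TS-RIP over RIPctr for each member gene in 5FdUR (circles), RTX (squares) and NT (triangles), with exact 95% counting intervals. Dashed lines mark 1.5-fold and asterisks the 6 genes that passed limma. Most ratios lie between 0 and 0.5, and SEC11C and ERGIC3 are to the right of 0.4 in each treatment.

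Within a treatment, SEC11C and SSR2 were above 1.5-fold in 5FdUR (3.03% of all genes), SEC11C in RTX (4.27%), and ERGIC3 and OSTC in NT (4.37%). None was below 1.5-fold in the other direction, where 15.1%, 14.7% and 9.8% of all genes were in 5FdUR, RTX and NT. OSTC had a ratio of 0.66 in NT on 170 fragments in TS-RIP and 80 in RIPctr, and 0.00 in both 5FdUR and RTX.

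The ratio itself differed between drug and NT for few members. With 5FdUR it was higher than in NT past 1.5-fold for SEC61G (by 0.73) and SEC62 (by 0.60), against 7.79% of all genes, and with RTX for OST4 (by 0.66) and KRTCAP2 (by 0.65), against 6.66%. It was lower for OSTC with 5FdUR (-0.66) and with RTX (-0.65), against 13.4% and 11.3% of all genes. The NT ratios behind these shifts had wide counting intervals. They spanned 0 for OST4 (-0.79 to 0.28) and KRTCAP2 (-0.66 to 0.15). They left out 0 for SEC61G (-0.99 to -0.042), SEC62 (-0.51 to -0.09) and OSTC (0.27 to 1.07). The paralogs KDELR1 and KDELR2 lay apart here, without passing the threshold. KDELR1 had ratios of 0.47 in 5FdUR, 0.43 in RTX and -0.01 in NT, and KDELR2 of 0.06 in 5FdUR, 0.06 in RTX and 0.46 in NT. These shifts compare single libraries. With libraries scaled to the same total 0 members were higher and 2 lower with each drug, and the share of all genes was not computed there.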

How the data were processed

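RNA of TS-RIP and RIPctr was sequenced from 3 lysates. The authors trimmed reads with fastp, aligned them to GRCh38 with HISAT2 and made a gene table with Cuffnorm on GENCODE 34, for which versions are not given in the sources used here. The deposited values, named FPKM by the authors, are signal in steps of 1 fragment: 100% of values below 200 fragments were whole multiples of the step of their library within 0.05 fragments, with geometric scaling and no length correction. Division by this step gave fragment counts. A further 25 per-sample columns were not used, of which 12 are labelled as long RNA. For their long RNA sequencing the authors report biological replicates, so the drug changes here were not compared with replicated RNA.

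Ratios and changes are differences of log2(value + 100). TS-RIP was tested against RIPctr with limma 3.58.1 (R 4.3.3, eBayes with trend, treatment pairs as block with 2 residual df, mean above 500, Benjamini-Hochberg adjusted over 13479 genes, two-sided, threshold 0.05). The 3 treatments served as pairs, so the p-values measure the spread between treatments and not between cultures. The test was also run on simulated fragments drawn independently for each library, which cannot show how it behaves on these pairs. Other comparisons are counts past 1.5-fold: within a treatment with a mean above 500, and between treatments in both fractions with a mean of 4 libraries above 1000. All 40 members passed these limits. Intervals are exact Clopper-Pearson (95%) and cover counting error only, since PCR copies are not independent molecules.

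Values in every library were to be given for members that passed limma, were called with a drug or within a treatment, or had the highest or lowest mean ratio of their group. From other lists, genes passing limma were to be named, and MMGT1, TMCO1, NCLN, TRAM2 and MCFD2 were chosen after their values were seen. Members and lists were chosen with earlier results of these data known, so their counts are not independent support. Alternatives were other pseudocounts, scaling, depth, filters, fold limits, each pair left out, edgeR 4.0.16 and DESeq2 1.42.0 on recovered fragments. Promoter sequences are from RefSeq (GRCh38.p14).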

Additional observations from a re-analysis of the deposited data

Results flagged for a closer look

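For 14 of the 40 members the TS-RIP over RIPctr ratio lay on one side of 0 in both drug treatments and on the other in NT, which drew attention to them. None of these differences was tested, as each treatment had 1 library per fraction. The share of all genes that meet this rule was not computed, so the count cannot be read as a trait of the members. Some NT ratios were very small, such as 0.007 for TMED10, 0.008 for SPCS2 and -0.005 for KDELR1. In SEC62 alone the counting intervals of all 3 ratios left out 0, at 0.30 in 5FdUR, 0.27 in RTX and -0.30 in NT, a ratio higher by 0.5996 in 5FdUR than in NT on the log2 scale.

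In all, 8 members lay above 0 with both drugs and below 0 in NT. Beside SEC62, the 5FdUR ratio exceeded that of NT by 0.7273 for SEC61G, 0.5693 for SEC61B, 0.5009 for OST4, 0.4793 for KDELR1, 0.4201 for KRTCAP2, 0.3729 for STT3A and 0.06328 for ERGIC2. The other 6 lay below 0 with both drugs and above 0 in NT, and their 5FdUR minus NT differences were -0.2078 for TMED3, -0.1743 for SSR1, -0.1553 for TMED4, -0.148 for SPCS3, -0.04151 for SPCS2 and -0.02951 for TMED10.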

How the results depend on the processing

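The drug changes were stable: the counts of members higher with 5FdUR or RTX than in NT stayed within 1.5 times at each pseudocount, scaling, depth and fold limit tried, and no called result turned its direction. The limma calls were not. The count of 6 members that rose in TS-RIP became 1 with libraries scaled to the same total, 0 without trend (8 at an unadjusted p under 0.05) and 0 without the treatment block (0 at an unadjusted p under 0.05), and ranged between 0 and 19 when 1 pair was left out. The share of all genes that rose was 0.496%, 0% and 0% in the first 3 of these, and between 0.0370% and 13.7% with 1 pair left out. The member count was 4 to 6 at other pseudocounts, depth and filters, where 1.03% to 2.41% of all genes rose. It was 7 in edgeR (2.83% of all genes) and 6 in DESeq2 (2.05%). No paired analysis by replicate number was possible because each group had 1 library, and pairing came from the shared lysate.

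With every library brought to 1 common total, all genes had a median ratio of -0.11 in 5FdUR, -0.12 in RTX and 0.11 in NT, and a median drug change over NT of 0.16 (5FdUR) and 0.09 (RTX) in RIPctr and -0.02 and -0.12 in TS-RIP. Under it the median member ratio was 0.16 (translocon 0.022), 0 members were past 1.5-fold in TS-RIP in 5FdUR and 0 in RTX, and 0 members had a higher and 2 a lower ratio than NT in 5FdUR and likewise in RTX. The median change with 5FdUR over NT was 1.36 (cargo 1.35), and that of 5FdUR over RTX 0.20 for the oligosaccharyltransferase and 0.15 for the translocon.

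In the subsample of 50% of fragments the median member ratio was 0.15 (oligosaccharyltransferase 0.13, translocon 0.023), 0 members were higher in TS-RIP in RTX, 1 higher and 3 lower in NT, and 4 had a higher and 2 a lower ratio in 5FdUR than in NT. The median change with RTX over NT was 1.58 for the signal peptidase and 0.98 for the cargo genes, and that of 5FdUR over RTX 0.14 for the translocon. Leaving out 1 pair put the median ratio between 0.16 and 0.30 for the oligosaccharyltransferase and between 0.025 and 0.12 for the translocon. At the lower fold limit, 6 members were higher in TS-RIP in 5FdUR, 13 in RTX and 10 in NT, and 3 lower in NT. In RIPctr alone 1 member was past 1.5-fold with 5FdUR over RTX.

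The cause of these differences was not tested. Of the 6 called genes, the mean ratio stayed above 0 in each alternative. This was bound to hold with 1 pair left out, since each gene was above 0 in 3 of 3 treatments. Filters, trend and block do not alter the estimate at all, so the sign is no support. Over genes and alternatives 45 values still passed and 33 did not. In NT RIPctr 8 members had under 100 fragments (SSR4, OST4, SEC61B, SEC11C, SPCS2, SEC61G, OSTC and KRTCAP2), which gives their ratios the widest intervals.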

Other observations

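Of the other pathway genes, 3 of 94 rose and 3 of 94 fell in TS-RIP relative to RIPctr over the treatments. Over all genes 2.33% rose and 6.17% fell. These calls come from the same limma fit as those of the members, whose number changed with the processing. For the genes named here that dependence was not examined. The risers were NOMO1, a subunit of the multipass translocon, with a mean log2 ratio of 0.37 (limma adjusted p = 0.042), PRKCSH, the beta subunit of glucosidase II, with 0.41 (limma adjusted p = 0.035), and SRPRA, the signal recognition particle receptor, with 0.41 (limma adjusted p = 0.025). Those that fell were ALG13, a subunit of the enzyme that adds the second sugar of the lipid-linked glycan, with -0.87 (limma adjusted p = 0.0063), UGGT2, a glucosyltransferase related to the folding sensor of the ER, with -0.42 (limma adjusted p = 0.046), and SEC16A, the scaffold of ER exit sites, with -0.41 (limma adjusted p = 0.034). NOMO1 has near-identical copies in the genome, so its value is uncertain.

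SEC16A also went the other way from the members with the drugs. It measured 79332 units in TS-RIP and 120599 in RIPctr with 5FdUR, 114479 and 151202 with RTX, and 200691 and 232748 in NT, so that all 4 drug libraries lay below both NT libraries. In the EMC list NCLN, the partner of NOMO1, measured 54017 units in TS-RIP and 64183 in RIPctr with 5FdUR, 67839 and 71681 with RTX, and 109483 and 93122 in NT, and was likewise below NT in each drug library.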
